A study of Mus musculus with 16 samples.

Results

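The Kruppel-like transcription factors *Klf2*, *Klf4*, *Klf6*, *Klf7*, *Klf9*, *Klf10*, *Klf11*, *Klf13*, *Klf15* and *Klf16* were followed in RNA-seq libraries of mouse hypothalamus. They were taken by gene symbol, 10 genes of the 55401 in the deposited values, and all 10 were among the 15808 genes tested. Hypothalami came from male C57BL/6 mice aged 3 months with a global deletion of ASIC1a, an acid-sensing ion channel, and from wild-type (WT) mice without the deletion, at Zeitgeber time (ZT) 13, early in the dark phase, or ZT1, early in the light phase. The groups were ASIC1a-/- at ZT13, WT at ZT13, ASIC1a-/- at ZT1 and WT at ZT1, with 4 libraries each, labelled as separate samples. Each library held a whole hypothalamus, so that fewer cells of a type and less RNA per cell cannot be told apart. The members were examined for their level, for their difference between ZT13 and ZT1 in each genotype, and for their difference between ASIC1a-/- and WT mice at each time.

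KLF proteins bind GC-rich and CACCC sequences through zinc fingers at their C-terminal end. Some members, such as KLF2, KLF4, KLF6 and KLF7, are known mainly as activators that recruit the acetyltransferases CBP and p300, whereas KLF9, KLF10, KLF11, KLF13 and KLF16 carry a motif that binds the SIN3A corepressor. *Klf9* and *Klf15* are known targets of the glucocorticoid receptor, and *Klf9* is also induced by thyroid hormone in brain. *Klf2* and *Klf4* are prominent in endothelial cells, where blood flow induces them through MEK5, ERK5 and MEF2 factors. *Klf10* and *Klf11* were described as early genes of the TGF-beta response.

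Library totals were 34888522 to 42326259 expected counts (median 35750448). The 10 hypothalamic marker genes fixed for the check were all tested, and their summed level was 1075 to 1509 CPM (read counts relative to library size, with TMM scaling). *Asic1*, the targeted gene, lay between 64.8 and 71.8 CPM in the 8 ASIC1a-/- libraries and between 97.0 and 106 CPM in the 8 WT libraries, so that all libraries matched their genotype label. In 2 libraries the summed level of 8 meningeal markers stood apart, at 196 CPM in ASIC1a-/- ZT13 replicate 2 and 374 CPM in ASIC1a-/- ZT1 replicate 4, against 48.5 to 108 CPM in the other 14. A gene is said to have risen or fallen at an adjusted p under 0.05 in edgeR's quasi-likelihood test, with Benjamini-Hochberg adjustment over all genes tested.

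In GENCODE's annotation of GRCm38 the members are protein-coding genes on 10 chromosomes. The hormone- and TGF-beta-linked genes are *Klf9* (ENSMUSG00000033863) at chr19:23141226-23168134 on the plus strand, *Klf15* (ENSMUSG00000030087) at chr6:90462576-90475238 on the plus strand, *Klf10* (ENSMUSG00000037465) at chr15:38291463-38300706 on the minus strand and *Klf11* (ENSMUSG00000020653) at chr12:24651274-24662789 on the plus strand. The genes best known from endothelium are *Klf2* (ENSMUSG00000055148) at chr8:72319033-72321656 on the plus strand and *Klf4* (ENSMUSG00000003032) at chr4:55527143-55532466 on the minus strand. The genes of injury and axon growth are *Klf6* (ENSMUSG00000000078) at chr13:5861482-5870394 on the plus strand and *Klf7* (ENSMUSG00000025959) at chr1:64029447-64122282 on the minus strand. The others are *Klf13* (ENSMUSG00000052040) at chr7:63886351-63938915 on the minus strand and *Klf16* (ENSMUSG00000035397) at chr10:80567124-80577321 on the minus strand. The values of a gene are sums over its transcripts.

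On the TPM scale, which corrects for transcript length, *Klf9* was the highest of the 10 genes and *Klf2* the lowest. *Klf9* averaged 38.2 ± 3.89 TPM over all libraries (SD, n = 16), at the 69.8th percentile of the genes tested, and its lowest library lay above the highest library of every other member. *Klf6* followed with 24.96 ± 2.01 TPM, *Klf13* with 18.5 ± 1.77 TPM and *Klf15* with 18.1 ± 3.25 TPM. The ranges of these neighbours overlapped, and *Klf13* lay above *Klf15* in 10 of 16 libraries. *Klf7* averaged 12.6 ± 0.911 TPM and *Klf16* 10.04 ± 1.15 TPM, with *Klf7* the higher in each of the 16 libraries although their ranges overlapped across libraries. The last 4 genes lay close together, with *Klf10* at 4.17 ± 0.462 TPM, *Klf11* at 3.92 ± 0.680 TPM, *Klf4* at 3.58 ± 0.666 TPM and *Klf2* at 3.40 ± 0.706 TPM. *Klf10* was above *Klf11* in only 8 of 16 libraries and *Klf4* above *Klf2* in 13 of 16, so that the order within these 4 is not beyond their spread. The ranges did not overlap between *Klf9* and *Klf6*, between *Klf15* and *Klf7*, or between *Klf16* and *Klf10*.

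**Figure D1:**
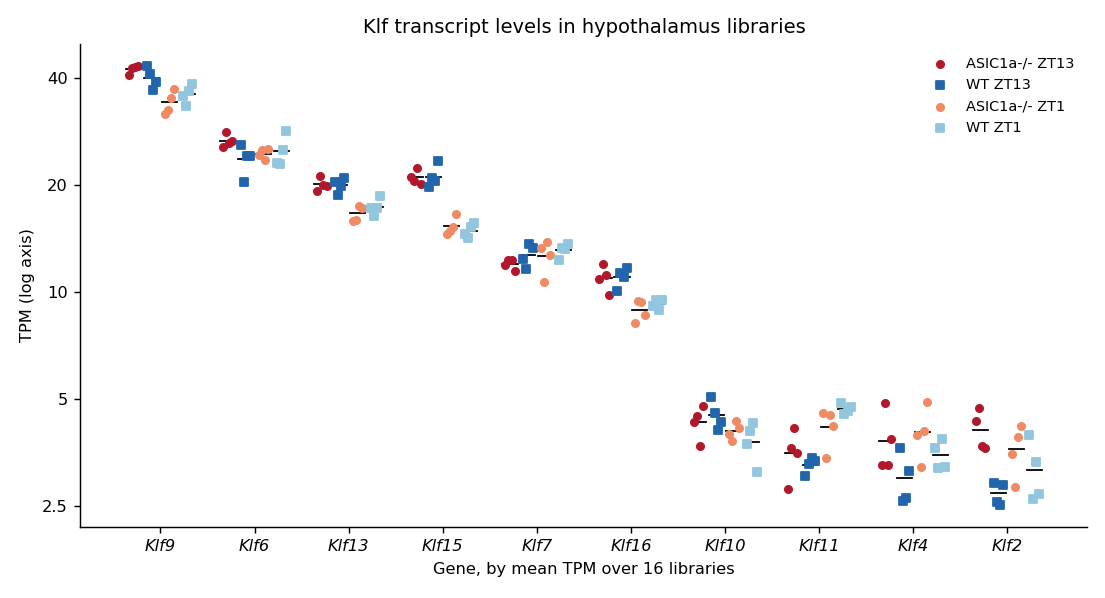
TPM (log axis) of the 10 Klf genes, ordered by mean level, with 1 point for each of the 16 libraries and a line at each group mean. *Klf9* lies above the others at 31.8 to 43.3 TPM, and the 4 genes at the right overlap.

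The fewest expected counts behind a member were 78, for *Klf2*, so that counting error matters most for this gene. The expected counts of all 10 members were whole in each library. An annotated antisense gene, *Gm13748*, overlaps exons of *Klf7* and was listed at 0 TPM on average. The mean transcript length used by RSEM was 1847 bp in each group for *Klf2* and 2674 bp for *Klf16*, each with 1 annotated transcript, and its group means for *Klf6* were between 2989 and 3074 bp. Of the other KLF genes, *Klf12* (13.6 TPM) and *Klf3* (13.4 TPM) were near *Klf7*, *Klf5* (3.76 TPM) and *Klf8* (3.21 TPM) were near *Klf2*, and *Klf1*, *Klf14* and *Klf17* had at most 14 counts in a library and were not tested.

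Between ZT13 and ZT1 *Klf15*, *Klf13* and *Klf16* rose in both genotypes, *Klf11* fell in both, and *Klf9* rose in ASIC1a-/- mice. The promoters of 4 of these genes are given for the E-box CACGTG, the site bound by CLOCK and BMAL1, because these genes changed with time. RefSeq (GRCm38.p6) windows from 250 bases before to 50 bases after the start matched 8 of the 10 members, all but *Klf10* and *Klf16*. The window of *Klf15* is chr6:90462326-90462625 on the plus strand, that of *Klf11* chr12:24651121-24651420 on the plus strand, that of *Klf13* chr7:63938866-63939165 on the minus strand and that of *Klf9* chr19:23140976-23141275 on the plus strand. They are written 5′ to 3′ along the gene, with each CACGTG in capitals.
Klf15: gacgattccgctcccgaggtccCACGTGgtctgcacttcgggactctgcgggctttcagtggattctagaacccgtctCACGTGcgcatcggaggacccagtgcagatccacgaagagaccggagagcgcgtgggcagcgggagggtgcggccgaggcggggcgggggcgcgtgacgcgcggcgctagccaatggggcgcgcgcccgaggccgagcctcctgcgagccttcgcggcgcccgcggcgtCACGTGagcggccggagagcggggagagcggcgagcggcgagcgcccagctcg
Klf11: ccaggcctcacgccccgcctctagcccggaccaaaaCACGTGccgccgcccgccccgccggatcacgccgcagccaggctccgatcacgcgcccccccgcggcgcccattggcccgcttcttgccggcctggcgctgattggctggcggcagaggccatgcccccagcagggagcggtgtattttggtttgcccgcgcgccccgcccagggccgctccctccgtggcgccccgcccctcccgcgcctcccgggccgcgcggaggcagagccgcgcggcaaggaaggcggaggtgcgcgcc
Klf13: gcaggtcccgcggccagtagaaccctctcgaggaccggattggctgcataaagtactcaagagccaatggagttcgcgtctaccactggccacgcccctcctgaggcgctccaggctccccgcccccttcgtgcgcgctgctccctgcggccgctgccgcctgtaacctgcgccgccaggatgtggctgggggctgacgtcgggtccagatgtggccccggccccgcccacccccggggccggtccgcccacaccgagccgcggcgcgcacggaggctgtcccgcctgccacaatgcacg
Klf9: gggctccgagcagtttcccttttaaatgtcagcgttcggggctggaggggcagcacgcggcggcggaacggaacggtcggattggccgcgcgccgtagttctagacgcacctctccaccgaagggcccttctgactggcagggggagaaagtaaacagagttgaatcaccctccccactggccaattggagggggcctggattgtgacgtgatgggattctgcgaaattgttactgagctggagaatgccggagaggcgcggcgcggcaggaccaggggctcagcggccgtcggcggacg
*Klf15* had 3 matches, at -228, -172 and -3 counted from the start base, *Klf11* had 1 at -214, and *Klf13* and *Klf9* had none. A window with at least 1 match made up 7.15% of all 32851 windows of this length, and 0.0883% held 3 or more. Among the other members *Klf4* had 1 match at -182 and *Klf6* 1 at -43, so that 4 of 8 windows held the motif. *Klf4* and *Klf6* passed the test between times in neither genotype.

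Other motifs were searched in the same windows on both strands, each counted separately where bases were shared. The GC box GGGCGG was in 7 of 8 member windows, all but that of *Klf9*, against 35.7% of all windows. The CACCC box CCACCC was in 3 of 8 (*Klf2*, *Klf7* and *Klf13*), against 31.5%. The cAMP response element TGACGTCA, the MEF2 core TATTTATA and the corticosteroid-receptor motif TGTTCT were in none of the 8, against 1.79%, 1.7% and 19% of all windows. These matches describe the letters in the windows. The shares over all windows, here and for the E-box, were not matched to the member windows for base composition.

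*Klf15*, which drives genes of amino acid breakdown in liver and muscle, had the smallest p between times among the members. In ASIC1a-/- mice it was at 21.7, 21.5, 23.6 and 22.3 CPM at ZT13, against 15.8, 16.6, 16.1 and 17.8 CPM at ZT1. In WT mice it was at 21.8, 23.3, 21.3 and 23.99 CPM at ZT13, against 15.9, 15.2, 16.1 and 16.6 CPM at ZT1. Every ZT13 library lay above every ZT1 library in each genotype. *Klf15* rose 1.34-fold in ASIC1a-/- mice (log2 fold change 0.43, SE 0.0494, adjusted p = 3.1e-05) and 1.42-fold in WT mice (0.50, SE 0.0498, adjusted p = 4.4e-06).

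*Klf13*, which encodes a repressor of GC-rich promoters also known as an activator in T cells, was also higher at ZT13 in both genotypes, with a smaller fold change. It was at 61.1, 66.2, 63.9 and 63.0 CPM in ASIC1a-/- mice at ZT13, against 52.1, 53.1, 55.2 and 56.5 CPM in ASIC1a-/- mice at ZT1. In WT mice it was at 66.4, 62.0, 64.0 and 65.6 CPM at ZT13, against 55.9, 52.9, 55.2 and 60.2 CPM at ZT1. The times did not overlap in either genotype. The rise was 1.17-fold in ASIC1a-/- mice (log2 fold change 0.23, SE 0.0401, adjusted p = 0.00143) and 1.15-fold in WT mice (0.20, SE 0.0401, adjusted p = 0.00296).

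*Klf16*, whose product has been described as a regulator of dopamine receptor promoters in mouse, also rose in both genotypes. Its levels in ASIC1a-/- mice were 14.1, 15.3, 14.4 and 12.91 CPM at ZT13, against 10.8, 12.87, 12.1 and 11.5 CPM at ZT1. Its levels in WT mice were 13.3, 15.04, 14.4 and 14.9 CPM at ZT13, against 12.1, 12.4, 11.5 and 12.4 CPM at ZT1. In ASIC1a-/- mice the lowest ZT13 library lay barely above the highest ZT1 library. On the log2 scale the rise was 0.26 in ASIC1a-/- mice (SE 0.0621, adjusted p = 0.0112) and 0.25 in WT mice (SE 0.0622, adjusted p = 0.0132). It did not pass in ASIC1a-/- mice without both libraries high in meningeal markers (adjusted p = 0.0756), nor in WT mice with limma on log2(TPM + 1) (adjusted p = 0.0509).

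*Klf9*, a hormone-induced repressor linked to neuron maturation, was at 90.7, 93.2, 95.3 and 97.8 CPM in ASIC1a-/- mice at ZT13, against 72.2, 76.1, 77.5 and 85.1 CPM in ASIC1a-/- mice at ZT1. In WT mice it was at 97.9, 94.2, 83.1 and 84.7 CPM at ZT13, against 80.4, 74.9, 81.7 and 86.2 CPM at ZT1. The times did not overlap in ASIC1a-/- mice, and they overlapped in WT mice. *Klf9* rose 1.21-fold in ASIC1a-/- mice (log2 fold change 0.28, SE 0.0556, adjusted p = 0.00366). In WT mice the log2 fold change of 0.15 (SE 0.0557) missed the threshold at an adjusted p of 0.0759, and it passed without a filter on low counts (adjusted p = 0.0445), with DESeq2 (0.0440) and without WT ZT13 replicate 3 (0.0491). The difference between genotypes in this change was 0.12 (95% interval -0.04 to 0.29), which did not pass its own test (adjusted p = 1.000 in edgeR).

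*Klf11*, which encodes a TGF-beta-inducible repressor that binds SIN3A, was the only member lower at ZT13 past the threshold. In ASIC1a-/- mice it was at 5.63, 7.25, 7.79 and 7.23 CPM at ZT13, against 9.42, 7.27, 9.14 and 8.70 CPM at ZT1. In WT mice it was at 6.25, 6.81, 6.97 and 6.61 CPM at ZT13, against 10.04, 9.27, 9.35 and 9.62 CPM at ZT1. The times lay well apart in WT mice, whereas in ASIC1a-/- mice 1 ZT1 library (replicate 2) fell among the ZT13 libraries. That library had the highest sum of oligodendrocyte markers, whose part in its *Klf11* value was not tested. The log2 fold change was -0.31 in ASIC1a-/- mice (SE 0.0931, adjusted p = 0.0410) and -0.52 in WT mice (SE 0.0933, adjusted p = 0.00144). The call in ASIC1a-/- mice was lost in 15 of 27 alternatives, with an adjusted p of 0.0140 to 0.222 over all of them, whereas that in WT mice was kept in all 27. In ASIC1a-/- mice it was lost without WT ZT1 replicate 2 (adjusted p = 0.0505) or 4 (0.0511), ASIC1a-/- ZT1 replicate 1 (0.107), 3 (0.0976) or 4 (0.0728), and ASIC1a-/- ZT13 replicate 1 (0.131), 2 (0.0584) or 4 (0.0542). The interaction was 0.22 (95% interval -0.06 to 0.49, adjusted p = 1.000 in edgeR).

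**Figure D2:**
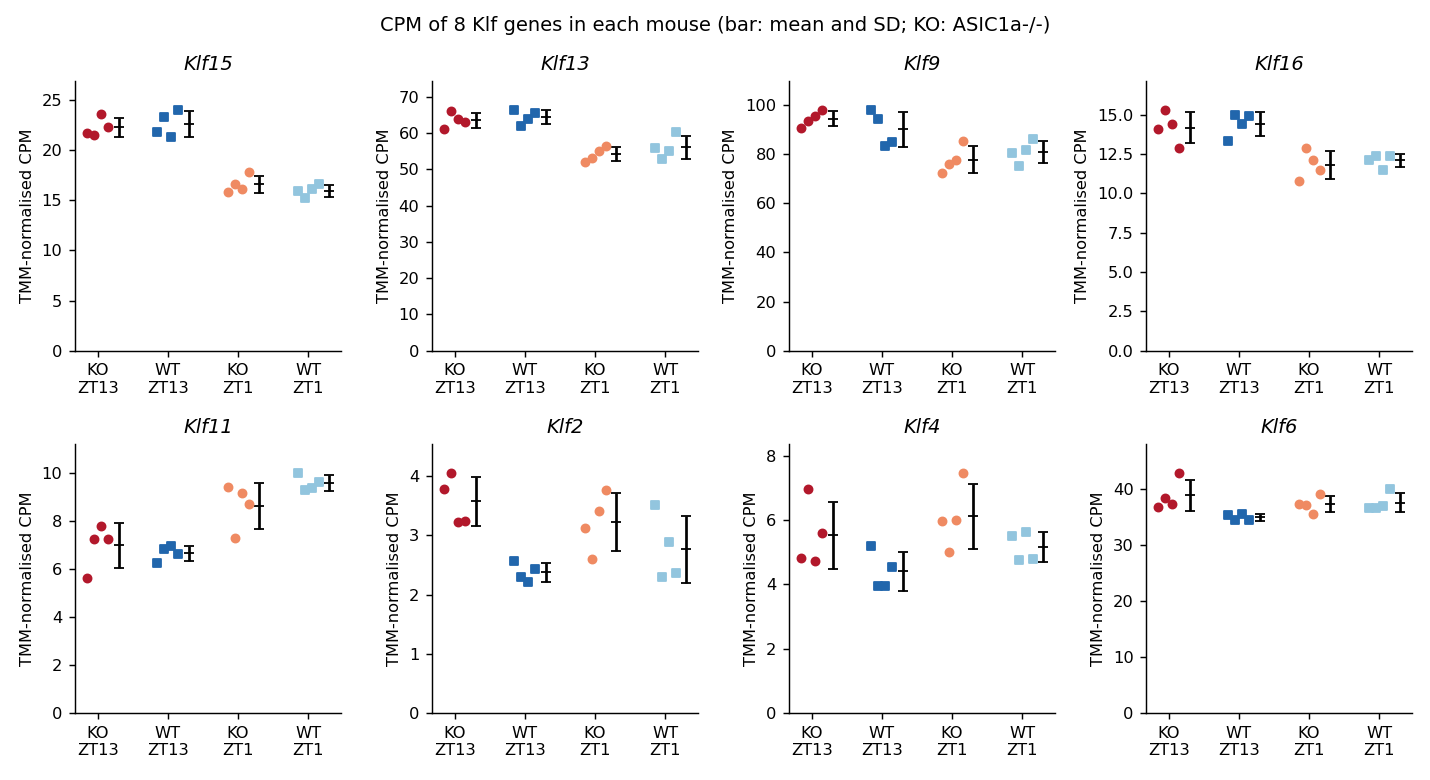
TMM-normalised CPM of 8 Klf genes in every mouse, by group, with 1 point per library and the mean and SD beside them (n = 4; KO is ASIC1a-/-; each axis starts at 0). *Klf15* lies at 21.3 to 23.99 CPM in the ZT13 libraries and 15.2 to 17.8 CPM in the ZT1 libraries, and *Klf2* is higher in each ASIC1a-/- library than in each WT library at ZT13.

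Together 4 of 10 members rose and 1 fell with time in ASIC1a-/- mice, where 6.72% of all genes tested rose and 4.62% fell. In WT mice 3 of 10 rose and 1 fell, where 7.51% of all genes rose and 5.76% fell. The times did not overlap for 4 of 10 members in ASIC1a-/- mice, against 15.7% of all genes, and for 5 of 10 in WT mice, against 18.3%. The median absolute log2 fold change over the members was 0.188 in ASIC1a-/- and 0.217 in WT mice, and over all genes it was 0.0771 in ASIC1a-/- and 0.0786 in WT mice. The members were chosen with earlier results of these data known, so the shares among them may reflect that choice.

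The other 5 members did not pass between times in either genotype. *Klf6*, an injury-response gene, did not overlap between times in WT mice, at 35.3, 34.4, 35.6 and 34.5 CPM at ZT13, against 36.6, 36.6, 37.0 and 39.98 CPM at ZT1 (log2 fold change -0.10, SE 0.0462, adjusted p = 0.158). *Klf10*, which is under clock control in mouse liver, differed by 0.07 (95% interval -0.14 to 0.27) in ASIC1a-/- mice and 0.22 (0.01 to 0.42) in WT mice on the log2 scale. *Klf7*, a regulator of axon growth, had -0.11 (-0.21 to -0.01) in ASIC1a-/- and -0.06 (-0.16 to 0.04) in WT mice. The CPM of *Klf7* was 42.9 to 46.9 in ASIC1a-/- mice at ZT13, against 43.0 to 51.1 in ASIC1a-/- mice at ZT1, and 46.0 to 49.7 in WT mice at ZT13, against 47.9 to 50.8 in WT mice at ZT1. The CPM of *Klf10* was 5.27 to 6.93 in ASIC1a-/- mice at ZT13, against 5.56 to 6.08 in ASIC1a-/- mice at ZT1, and 5.89 to 6.81 in WT mice at ZT13, against 4.56 to 6.12 in WT mice at ZT1. The times overlapped for both genes in each genotype. In ASIC1a-/- mice *Klf7* passed only without ASIC1a-/- ZT1 replicate 2 (log2 fold change -0.16, adjusted p = 0.0214), 1 of the 27 alternatives. That library had the highest sum of oligodendrocyte markers, whose part in its *Klf7* value was not tested. For *Klf2* and *Klf4* the intervals were wide and spanned 0 in both genotypes, -0.15 to 0.44 in ASIC1a-/- and -0.53 to 0.09 in WT mice for *Klf2*, and -0.43 to 0.14 in ASIC1a-/- and -0.52 to 0.06 in WT mice for *Klf4*.

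Markers of other tissues also differed between times. The summed CPM of 6 anterior pituitary markers was 5.80 to 40.4 in WT mice at ZT13, against 0.506 to 3.54 in WT mice at ZT1, and the 3 markers tested (*Gh*, *Prl* and *Cga*) all rose. In ASIC1a-/- mice it was 0.729 to 9.93 CPM at ZT13, against 4.67 to 14.1 CPM at ZT1, and none of the 3 passed. *Pou1f1*, a defining factor of pituitary cells, was at 0 in each library of the groups other than WT at ZT13. Of 11 endothelial markers 2 rose and 2 fell in ASIC1a-/- mice and 2 rose and 4 fell in WT mice, with sums of 210 to 247 CPM in ASIC1a-/- mice at ZT13, against 208 to 266 CPM at ZT1, and 198 to 210 CPM in WT mice at ZT13, against 211 to 225 CPM at ZT1. Of 8 mural markers none rose, and 1 fell in ASIC1a-/- and 3 in WT mice. The part of these markers in the changes of the Klf genes was not tested.

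No member differed between ASIC1a-/- and WT mice at ZT13 at an adjusted p under 0.05, where 0.101% of all genes tested did. *Klf2* and *Klf6* nevertheless did not overlap between genotypes, 2 of 10 members, against 2.58% of all genes. At an unadjusted p under 0.05 there were 3 members (*Klf2*, *Klf6* and *Klf4*), all higher in ASIC1a-/- mice, against 3.74% of all genes, and with DESeq2 and with limma-voom the number of members past the adjusted threshold was also 0.

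*Klf2*, which restrains inflammation and clotting in endothelium, was at 3.78, 4.06, 3.22 and 3.24 CPM in ASIC1a-/- mice at ZT13, against 2.57, 2.30, 2.21 and 2.44 CPM in WT mice at ZT13. These values rest on 117 to 144 counts per ASIC1a-/- library and 78 to 90 counts per WT library. All ASIC1a-/- mice lay above all WT mice. The log2 fold change was 0.59 (SE 0.145, 95% interval 0.28 to 0.89, unadjusted p = 8.0e-04), and it did not pass after adjustment in edgeR (adjusted p = 0.353; 0.109 to 0.999 over the 27 alternatives). At ZT1 *Klf2* was at 3.13, 2.60, 3.42 and 3.77 CPM in ASIC1a-/- mice, against 3.51, 2.30, 2.89 and 2.36 CPM in WT mice, and the genotypes overlapped. The highest *Klf2* value of each ASIC1a-/- group was in the library high in meningeal markers. The interaction was 0.36 (95% interval -0.07 to 0.80) and did not pass (adjusted p = 1.000 in edgeR).

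*Klf4*, a partner of *Klf2* in endothelium and one of the reprogramming factors, was at 4.82, 6.97, 4.73 and 5.60 CPM in ASIC1a-/- mice at ZT13, against 5.20, 3.95, 3.94 and 4.53 CPM in WT mice. At ZT1 it was at 5.98, 5.01, 6.00 and 7.47 CPM in ASIC1a-/- mice, against 5.49, 4.75, 5.62 and 4.78 CPM in WT mice. The genotypes overlapped at both times, and the highest value in each ASIC1a-/- group belonged to the library high in meningeal markers. The log2 fold change was 0.33 at ZT13 (SE 0.139, unadjusted p = 0.0308, adjusted p = 1.000) and 0.24 at ZT1 (SE 0.137, adjusted p = 0.733). Without both of those libraries the value at ZT13 was 0.20 for *Klf4* (adjusted p = 0.999) and 0.52 for *Klf2* (adjusted p = 0.818), and the value at ZT1 was 0.13 for *Klf4* (adjusted p = 0.929) and 0.14 for *Klf2* (adjusted p = 0.938).

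Vascular markers were measured beside these genes at ZT13. The summed CPM of 11 endothelial markers was 210 to 247 in ASIC1a-/- mice, against 198 to 210 in WT mice, with all 11 log2 fold changes above 0 (median 0.17) and none past the threshold. The summed CPM of 8 mural markers was 135 to 180 in ASIC1a-/- mice, against 128 to 142 in WT mice, with 7 of 8 above 0 (median 0.15). Both upper ends in ASIC1a-/- mice, 247 and 180 CPM, came from replicate 2, the library high in meningeal markers. The remaining ASIC1a-/- libraries were at 225, 221 and 210 CPM for the endothelial markers. They were at 137, 140 and 135 CPM for the mural markers, within the WT range. The meningeal markers had a median of 0.46 at ZT13 and 1.06 at ZT1, with 8 of 8 above 0 at each time and none past the threshold. These values include the 2 libraries high in these markers, at 196 CPM at ZT13 and 374 CPM at ZT1. At ZT13 the median sum was 51.5 CPM in ASIC1a-/- mice, against 64.3 CPM in WT mice. At ZT1 it was 89.1 CPM in ASIC1a-/- mice, against 57.1 CPM in WT mice. Shared signs at ZT13 were not limited to these lists. Oligodendrocyte markers had 8 of 8 above 0 (median 0.06) and microglia markers 9 of 10 (median 0.06), whereas astrocyte and neuron markers each had 5 of 8. None of these passed. The part of any of these markers in the values of *Klf2* and *Klf4* was not tested. The 10 genes of the MEK5 and ERK5 arm and the cerebral cavernous malformation complex, which lie upstream of *Klf2* and *Klf4*, had none past the threshold and a median of -0.01 (*Map3k3* 0.01, *Map2k5* -0.02, *Mapk7* -0.05, *Mef2d* -0.05). Of 6 tested targets of KLF2 and KLF4 in endothelium, none passed and all 6 were above 0 (median 0.11). *Nos3*, the endothelial nitric oxide synthase, was at 0.11 and *S1pr1*, a sphingosine-1-phosphate receptor, at 0.07. *Adamts4* was at 0.11, *Vcam1* at 0.06 and *Edn1* at 0.21 (SE 0.258). The list was not split into induced and repressed targets, so the shared sign does not describe a shared response. The values are of whole hypothalamus, so they are not those of endothelium alone. *Thbd*, thrombomodulin, was at 0.50 with an SE of 0.537, and its spread was wide, at 8.61 ± 7.13 CPM in ASIC1a-/- mice and 6.04 ± 1.34 CPM in WT mice (SD, n = 4).

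*Klf6* was at 36.8, 38.4, 37.3 and 42.9 CPM in ASIC1a-/- mice at ZT13, against 35.3, 34.4, 35.6 and 34.5 CPM in WT mice. All ASIC1a-/- mice lay above all WT mice by a small margin. The log2 fold change was 0.15 (SE 0.0460, unadjusted p = 0.00395, adjusted p = 0.894), and it was 0.10 without ASIC1a-/- ZT13 replicate 4, the highest library. At ZT1 the value for *Klf6* was -0.01 (95% interval -0.11 to 0.09). The interaction of *Klf6*, 0.16 (95% interval 0.03 to 0.30), was the only one among the members with an unadjusted p under 0.05 (0.0227; adjusted p = 1.000 in edgeR), against 3.91% of all genes.

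For the members that changed with time no difference between genotypes passed at ZT13, and the interval was widest for *Klf11*. The 95% intervals of ASIC1a-/- against WT were -0.12 to 0.08 for *Klf15*, -0.10 to 0.06 for *Klf13*, -0.15 to 0.11 for *Klf16*, -0.05 to 0.18 for *Klf9* and -0.13 to 0.27 for *Klf11* on the log2 scale. At ZT1 no member passed, where 0.0127% of all genes did. None had an unadjusted p under 0.05 there, against 7.00% of all genes, or genotypes that did not overlap, against 2.92% of all genes. No member passed for the interaction, where 0.0190% of all genes did. In both comparisons the number past the threshold was also 0 with DESeq2 and limma-voom. The comparisons of times and of genotypes share libraries and are not independent of each other.

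**Figure D3:**
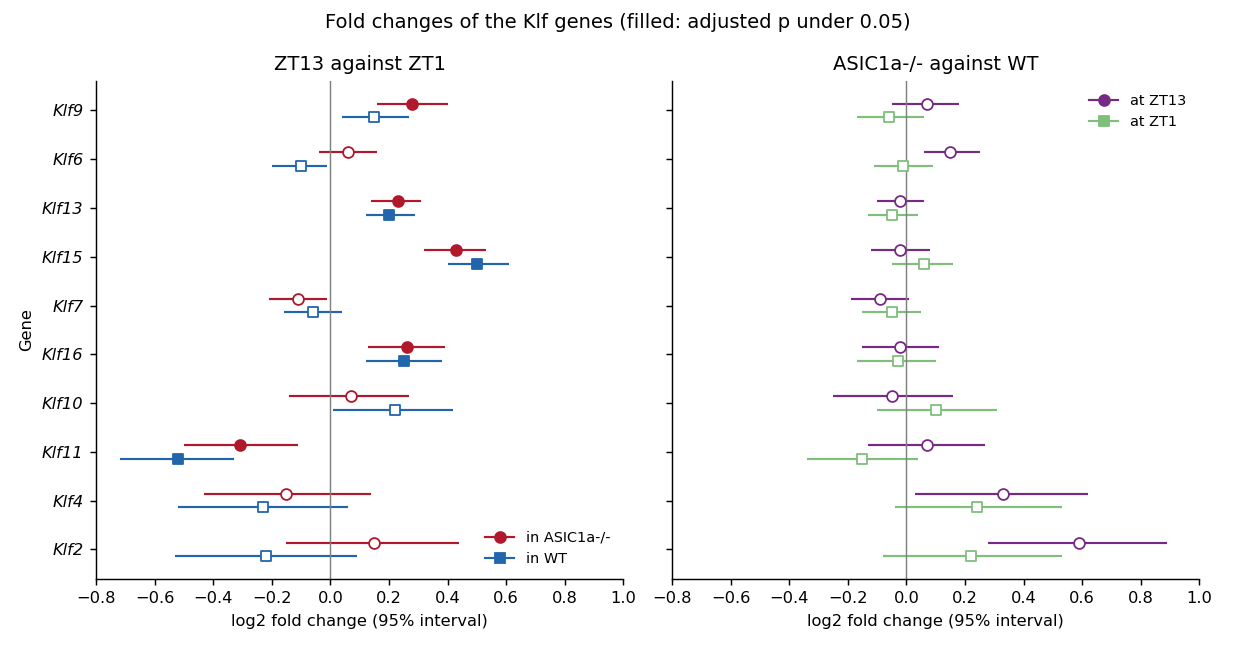
Log2 fold changes of the 10 Klf genes with 95% intervals, ZT13 against ZT1 at the left and ASIC1a-/- against WT at the right, with filled points for an adjusted p under 0.05. At the left *Klf15* lies at 0.43 in ASIC1a-/- and 0.50 in WT mice and *Klf11* at -0.31 in ASIC1a-/- and -0.52 in WT mice; at the right no point is filled and *Klf2* at ZT13 lies farthest from 0.

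Among genes linked to the members, many corticosteroid-responsive genes rose with time. Of 19 such genes and receptors 11 rose in ASIC1a-/- mice (median log2 fold change 0.37) and 8 in WT mice (median 0.19), and none fell. The median over all genes was -0.0064 in ASIC1a-/- and -0.0027 in WT mice. The receptor genes passed in neither genotype, with *Nr3c1* at 0.03 in ASIC1a-/- and 0.05 in WT mice and *Nr3c2* at -0.03 in ASIC1a-/- and -0.01 in WT mice. *Plin4*, a lipid droplet protein gene, was at 23.0 ± 4.35 CPM at ZT13 and 3.79 ± 0.775 CPM at ZT1 in ASIC1a-/- mice, and at 24.9 ± 0.558 CPM at ZT13 and 3.08 ± 0.529 CPM at ZT1 in WT mice (SD, n = 4). *Tsc22d3*, which encodes the glucocorticoid-induced leucine zipper, rose by 0.76 in ASIC1a-/- and 0.60 in WT mice on the log2 scale, and *Fkbp5*, a co-chaperone of the receptor, by 0.38 in ASIC1a-/- and 0.67 in WT mice. At ZT13 3 of the 19, *Sgk1* (0.95), *Arl4d* (1.02) and *Ddit4* (0.39), were higher in ASIC1a-/- than in WT mice, where 0.101% of all genes differed. The paper had reported *Sgk1* and *Arl4d* among its genes raised at ZT13 in these libraries. The list was chosen with earlier results of these data known, so its share may reflect that choice. Between genotypes at ZT13 the median of the list was 0.05, with 14 of 19 above 0. *Zbtb16* (-0.50) and *Fkbp5* (-0.19) were among those below 0, neither past the threshold. *Klf9* and *Klf15* had 0.07 and -0.02 in this comparison.

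Of 17 clock genes 9 rose and 1 fell with time in each genotype, with *Dbp* at 0.40 in ASIC1a-/- and 0.48 in WT mice, *Per2* at 0.49 in ASIC1a-/- and 0.60 in WT mice, and *Arntl*, which encodes BMAL1, at -0.21 in ASIC1a-/- and -0.33 in WT mice. Of 8 tested thyroid hormone genes *Hr* and *Dio2* rose in both genotypes (*Hr* 0.62 in ASIC1a-/- and 0.42 in WT, *Dio2* 0.59 in ASIC1a-/- and 0.56 in WT), and *Slco1c1* fell in WT mice (-0.19). Of 11 TGF-beta genes none passed in ASIC1a-/- mice, and in WT mice *Smad7* (0.25), *Smad2* (0.13) and *Smad4* (0.11) rose and *Smad3* fell (-0.20). Of 5 tested metabolic or channel genes under KLF15 control in other organs, *Prodh*, proline dehydrogenase, and *Slc2a4*, the glucose transporter GLUT4, rose in both genotypes (*Prodh* 0.29 in ASIC1a-/- and 0.26 in WT, *Slc2a4* 0.72 in ASIC1a-/- and 0.79 in WT), and *Bcat2*, *Gpt* and *Kcnip2* passed in neither.

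Of 9 cofactors, *Sin3a* (0.12 in ASIC1a-/-, 0.14 in WT), *Ep300* (0.21 in ASIC1a-/-, 0.19 in WT) and *Crebbp* (0.14 in ASIC1a-/-, 0.18 in WT) rose with time in both genotypes. Of 7 tested SP genes, the closest relatives of the KLF family, only *Sp3* rose, by 0.16 in ASIC1a-/- and 0.14 in WT mice, and none of the 4 tested other KLF genes (*Klf3*, *Klf5*, *Klf8* and *Klf12*) passed in any comparison. *Klf12* came closest, with -0.13 in each genotype (adjusted p = 0.0515 in ASIC1a-/- and 0.0597 in WT mice). Of 15 immediate early genes 8 were higher in ASIC1a-/- than in WT mice at ZT13 (median 0.77 over the list), among them *Egr1* (1.27) and *Fos* (1.16). The paper had reported both among its genes raised at ZT13 in these libraries. This list was also chosen with earlier results of these data known, so its share may reflect that choice. *Klf10*, itself a rapid response gene in other cells, had -0.05 (95% interval -0.25 to 0.16) between genotypes at ZT13.

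The genes nearest to a member were taken by Pearson's r of log2 CPM over the 16 libraries, among 14965 genes with a mean of at least 1 CPM. This r includes the differences between the 4 groups. The nearest to *Klf15* were *Plin4* (0.970), *Ankrd13a* (0.967) and *Gpt2* (0.966), to *Klf13* *Clmn* (0.943), *Sdc4* (0.936) and *Fam107a* (0.934), and to *Klf9* *Rhou* (0.897), *Ly6c1* (0.878) and *Kdelc2* (0.870). For *Klf11* they were *Gtpbp8* (0.928), *Hnrnpul1* (0.924) and *Kidins220* (0.898), and for *Klf16* *Zfp420* (0.918), *Ccdc85a* (0.914) and *Ppp1r15b* (0.911). *Klf2* had the lowest values, with *Hspa12b* (0.799), *Klf4* (0.773) and *Acy1* (0.734), while *Klf4* had *Ehd2* (0.888), *Tnfsf10* (0.885) and *Mill2* (0.859). *Klf6* was nearest to *Diras2* (0.813), *Cntnap5b* (0.794) and *Cops7b* (0.779), *Klf7* to *Zfp787* (0.895), *Rbm33* (0.870) and *Macf1* (0.863), and *Klf10* to *Prkaa2* (0.885), *Gfpt1* (0.841) and *Mfap3l* (0.819).

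Within groups, relations between members and lists did not pass. The 6 relations were computed on values centred on the group means over 16 libraries, with two-sided permutation tests (100000 permutations within groups) adjusted over the 6. *Klf4* and the mean of the endothelial markers had r = 0.67 (p = 0.0315, adjusted p = 0.104; rho = 0.52, p = 0.0806, adjusted p = 0.135), which was 0.30 without the 2 libraries farthest from the median. On log2(TPM + 1) the same relation had r = 0.50, and 0.52 without 2 libraries chosen in the same way, so that the drop was not seen on that scale. *Klf2* and the endothelial markers had r = 0.48 (p = 0.105, adjusted p = 0.157; rho = 0.51, p = 0.0817, adjusted p = 0.135) and 0.22 without the 2 libraries farthest from the median. These 2 libraries were chosen anew for each list, from the centred mean of that list. *Klf9* and the corticosteroid genes had r = 0.62 (p = 0.0347, adjusted p = 0.104; rho = 0.56, p = 0.0637, adjusted p = 0.135) and 0.39 without the 2 libraries of that list. *Klf15* and the corticosteroid genes had r = 0.54 (p = 0.0573, adjusted p = 0.115; rho = 0.51, p = 0.0903, adjusted p = 0.135) and 0.28 without the 2 libraries of that list. *Klf4* with the immediate early genes had r = 0.01 (p = 0.985, adjusted p = 0.985; rho = -0.01, p = 0.989, adjusted p = 0.989) and -0.04 without the 2 libraries of that list. *Klf10* with the immediate early genes had r = -0.25 (p = 0.401, adjusted p = 0.481; rho = -0.31, p = 0.317, adjusted p = 0.380) and -0.54 without the 2 libraries of that list.

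**Figure D4:**
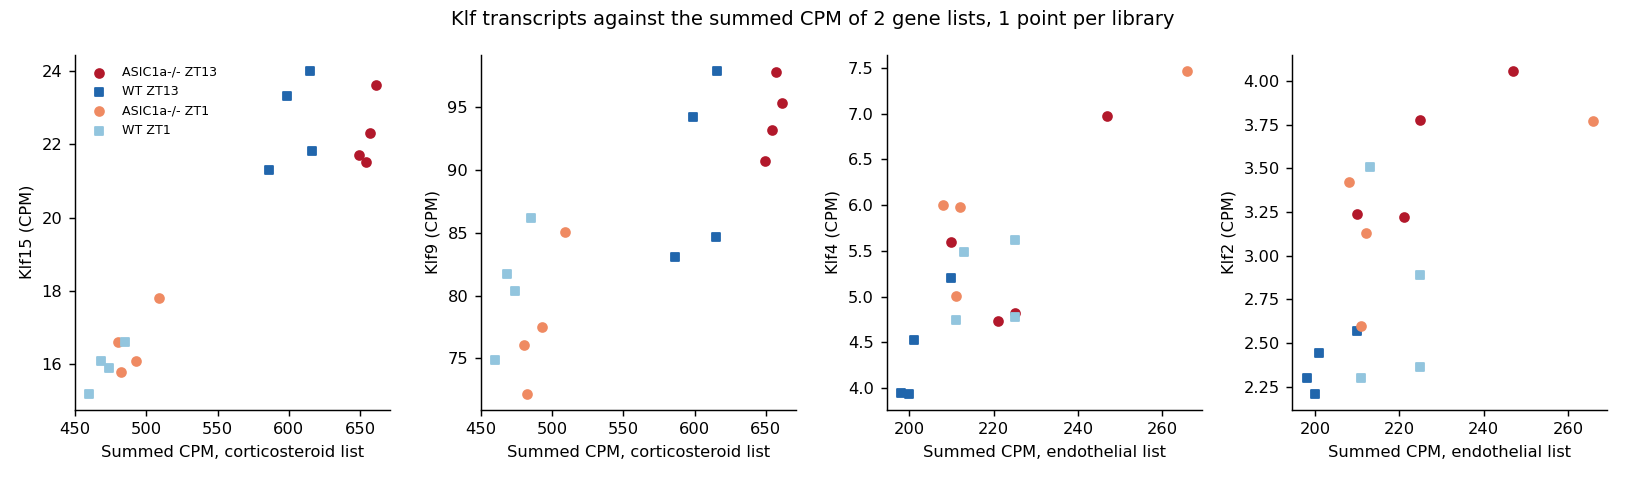
CPM of *Klf15* and *Klf9* against the summed CPM of 19 corticosteroid genes, and of *Klf4* and *Klf2* against that of 11 endothelial markers, with 1 point per library, by group. The ZT13 libraries lie at 586 to 661 CPM and the ZT1 libraries at 460 to 509 CPM of the corticosteroid genes, and the endothelial sum is highest in the 2 libraries high in meningeal markers, at 266 and 247 CPM.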

How the data were processed

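The 16 libraries, 4 per group, were made from whole hypothalamus and sequenced as RNA. Per the labels and methods, the authors trimmed reads with cutadapt 1.8, aligned them with STAR 2.5.3a and estimated abundance with RSEM 1.2.31 on GRCm38. The submitters' notes also name HTSeq 0.9.1 and a second build, mm9, and the methods and labels name different extraction and library kits. The deposited expected counts came from RSEM as gene sums without normalization by the authors, and 4.85% of them are not whole. The deposited TPM values carry the correction of the authors for transcript length and for library total. Transcript lengths were used as deposited by the authors.

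After rounding, a quasi-likelihood F test with TMM scaling (edgeR 4.0.16 under R 4.3.3) was fitted with 1 mean for each group to the 15808 genes that exceeded 1 CPM in any library, with Benjamini-Hochberg adjustment. The fit had a biological coefficient of variation of 6.06%, 12 degrees of freedom for the residuals and 5.83 for the prior, from which the 95% intervals followed. Precision was set by the spread between libraries, their number of 4 per group and, for low genes such as *Klf2* and *Klf4*, counting error. The labels do not name animals, and the paper's figure of these data gives 4 animals per condition. On that reading the p-values measure the spread between mice. No library repeated another of its group (chi-square per degree of freedom 2.93 to 9.87 over 24 pairs).

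Symbols and positions came from GENCODE mouse release M21, which names 55141 of the 55401 identifiers, and promoters from RefSeq (GRCm38.p6). The rule for names covered all 10 members, up to 4 genes with the smallest p in a comparison from each of 24 lists, the other KLF genes and the 3 nearest genes per member. The corticosteroid receptor genes *Nr3c1* and *Nr3c2* were named in addition. The members and lists were chosen with earlier results of these data known. The test was checked on simulated data. Alternatives were no filter on low counts, edgeR's filterByExpr, DESeq2 size factors, scaling by library size only, DESeq2 1.42.0, limma-voom (limma 3.58.1), limma on log2(TPM + 1) and log2(TPM + 0.1), a fit to the compared libraries alone, a replicate block, omission of both libraries high in meningeal markers, and omission of each library in turn. Relations were repeated without centring and on log2(TPM + 1). Figures were drawn with matplotlib 3.10.9.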

Additional observations from a re-analysis of the deposited data

Results flagged for a closer look

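*Klf6* in WT ZT1 replicate 4 stood apart from its group, at 39.98 CPM against 36.6, 36.6 and 37.0 CPM in the other 3 libraries. The rule was applied to each of the 10 members in each of the 4 groups, and this was the only value singled out. Chance would single out about 1 in 20 groups of this size by the same rule.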

How the results depend on the processing

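The numbers of members past the threshold between genotypes and for the interaction were 0 in every alternative run. For ZT13 against ZT1 in ASIC1a-/- mice the 5 members became 3 without both libraries high in meningeal markers, with *Klf11* (log2 fold change -0.32 against -0.31 with all libraries, adjusted p = 0.0974) and *Klf16* (0.21 against 0.26, adjusted p = 0.0756) lost, and 4 to 6 when 1 library was left out. In WT mice the 4 members became 3 to 5 over the alternatives. *Klf15* and *Klf13* passed in both genotypes, *Klf9* in ASIC1a-/- mice and *Klf11* in WT mice under each alternative run. *Klf11* in ASIC1a-/- mice was also lost with no filter on low counts (adjusted p = 0.0566), library size only (0.0539), only the libraries compared (0.125) and limma on log2(TPM + 1) (0.217) or log2(TPM + 0.1) (0.222).

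Replicate numbers did not pair the libraries (correlations of same-numbered libraries -0.32 to 0.22, at most 2 of 4 pairs over 0.1). With the replicate block 4 members passed between times in ASIC1a-/- mice (*Klf11*, adjusted p = 0.0552, did not), 4 in WT mice and 0 in the other comparisons.

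Values near 0 that passed in no setting changed sign. *Klf13* between genotypes at ZT13 was 0.0062 with limma on log2(TPM + 1) and 0.0065 on log2(TPM + 0.1), and the interaction of *Klf16* was -0.036 without both libraries high in meningeal markers. When 1 library was left out, ASIC1a-/- against WT at ZT13 ranged from -0.11 to 0.024 for *Klf10*, -0.05 to 0.011 for *Klf15* and -0.06 to 0.021 for *Klf16*. At ZT1 it ranged from -0.03 to 0.021 for *Klf6*, -0.08 to 0.0045 for *Klf7* and -0.08 to 0.0066 for *Klf16*. The interaction ranged from -0.050 to 0.19 for *Klf4*, -0.010 to 0.05 for *Klf13* and -0.028 to 0.05 for *Klf16*. Without centring on group means, r includes the differences between groups and was 0.62 for *Klf2* and 0.80 for *Klf4* with the endothelial markers, 0.85 for *Klf9* and 0.96 for *Klf15* with the corticosteroid genes and 0.24 for *Klf10* with the immediate early genes. Over all genes, 16 passed between genotypes at ZT13, against 29 with no filter and 30 with DESeq2. At ZT1 2 passed, against 15 with no filter, 7 with DESeq2 and 1 with limma on either TPM scale. For the interaction 3 passed, against 17 with no filter, 13 with DESeq2, 6 without both libraries high in meningeal markers, 5 with the replicate block and 2 with limma on either TPM scale. Between times 1792 passed in ASIC1a-/- mice, against 971 on log2(TPM + 1), 969 on log2(TPM + 0.1) and 1099 without both libraries high in meningeal markers, and 2098 in WT mice, against 879 on log2(TPM + 1) and 882 on log2(TPM + 0.1). On log2(TPM + 1) the centred r was 0.37 for *Klf2* and 0.50 for *Klf4* with the endothelial markers and 0.56 for *Klf9* and 0.67 for *Klf15* with the corticosteroid genes, and none passed (adjusted p = 0.0788 to 0.407). Without the 2 libraries farthest from the median it was 0.47 for *Klf2*, 0.52 for *Klf4*, 0.40 for *Klf9* and 0.62 for *Klf15*. The causes were not tested. Depth limits *Klf2* most, at 78 counts in its lowest library.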
